A study of Homo sapiens with 18 samples.

Results

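The DDX and DHX RNA helicases are described here by where their mRNAs sat in the sucrose gradients of vehicle-treated HEK293 cells. Members were taken by symbol, as every gene whose name starts with DDX or DHX followed by a digit. This gave 46 of the 13661 genes in the table, 31 DDX and 15 DHX genes, all annotated as protein coding. All 46 passed the filter on low counts, which kept 12720 genes. No measured value enters the rule, but the family was proposed with its spread over the gradient known. Counts over the family are therefore descriptions set beside the share of all genes, and nothing is read from them as support. DDX3Y, DDX47, DDX60L, DHX58 and the germline genes DDX4, DDX25, DDX43 and DDX53 have no row under these symbols and are not analysed here. RIGI, once named DDX58, is outside the rule by its present symbol and is counted with the other RNA helicases at the end.

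HEK293 is a long-established line of human embryonic kidney cells. Cells were given DMSO, the vehicle, for 12 h, and their cytoplasm was spun through sucrose gradients, from which fractions of monosomes, light polysomes and heavy polysomes were collected. Each fraction has 3 libraries, numbered 1 to 3 and called gradients 1, 2 and 3 here; the labels also give that number as the batch. The series has 18 libraries, and the 9 from cells treated with 100 µM minocycline for 12 h are not analysed here. All groups are thus fractions of 1 cell line under 1 condition, and none of the values below bears on minocycline. The labels call the replicates biological without saying whether the cultures were separate, so p-values measure the spread between these libraries. In bulk lysates, fewer cells holding an mRNA and less of it per cell cannot be told apart.

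RNA helicases of the DEAD-box (DDX) and DEAH-box (DHX) families use ATP to pull apart RNA duplexes or to strip proteins from RNA. DEAD-box proteins mostly open short duplexes locally, while many DEAH-box proteins move along a strand and are switched on by partners with a G-patch motif. Between them they act at nearly every step in the life of an RNA, from transcription and splicing through export and ribosome assembly to translation and decay. Growing cells such as HEK293 need many of them at once, since ribosome assembly alone takes a set of nucleolar helicases.

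The libraries held between 13447139 and 24441159 reads, of which the 46 genes took 0.118% to 0.943%. All 6 HEK293-expressed marker genes checked (NEFL, NEFM, INA, UCHL1, PAX2 and LHX1) were present, and none of 5 markers of blood, liver, endothelium or red cells had a row in the table. Gradient 2 stood apart. Across genes, its light polysome library correlated with the heavy polysome libraries at Pearson r 0.928 to 0.953, but with the other light polysome libraries at 0.889 and 0.899, whereas light polysome libraries 1 and 3 correlated at 0.985. Mitochondrially encoded mRNAs took 3.87% of monosome library 2 against 26.0% and 19.5% of libraries 1 and 3. The part of these differences in the results on the family was not tested, and the counts of calls over the family, the roles and the partner lists are also given without gradient 2.

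The heavy polysomes held the largest share of the signal of a typical member. The median member had 43.8%, 51.5% and 39.9% of its normalized count in the heavy polysomes of gradients 1, 2 and 3, where the median of all genes kept was 32.8%, 32.3% and 32.3%. Its monosome share was 33.4%, 19.3% and 33.9%, against 30.8%, 30.9% and 31.3% over all genes. The members thus sat above the typical gene in heavy polysomes in each gradient, and below it in monosomes only in gradient 2. Each fraction was scaled to the same typical gene, so these shares compare genes and do not measure how much RNA a fraction held.

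The mean ribosome load (MRL) condenses the 3 shares into 1 number. It weights the monosome share by 1, the light polysome share by 2.5 and the heavy polysome share by 6. MRL thus runs from 1 to 6, and its weights stand for ribosomes per mRNA. Because the fractions were scaled, it is a score that compares genes and not a count of ribosomes. The median gene had an MRL of 3.17 ± 0.009 (SD, n = 3 gradients). This value is held nearly fixed by how the libraries were scaled. Its small SD therefore does not show how well the gradients repeat, and it serves only as a reference for other genes. Over the 46 members the median was 3.56, 3.99 and 3.49 in gradients 1, 2 and 3. Mean MRLs ran from 2.66 for DHX30 to 4.77 for DDX54, and 37 of the 46 lay above the median gene, as did 6642 of all 12720 genes. DDX and DHX genes had nearly the same median of mean MRLs, 3.654 and 3.646.

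Whether a gene's MRL differed from the median gene was asked with limma over the 3 gradients, with Benjamini-Hochberg adjustment over all 12720 genes and a threshold of 0.05. The MRL of 19 members was higher and that of 0 was lower. Over all genes, 22.0% passed as higher and 24.7% as lower. By unadjusted p, 21 members were higher and 0 lower, against 3367 and 3580 of all genes. Without gradient 2, 20 members were higher and 6 lower (DDX5, DDX11, DDX17, DDX20, DHX15 and DHX30), where 29.1% of all genes were higher and 28.0% lower. Without gradient 1, 9 members were higher and 0 lower, against 9.89% and 17.0% of all genes. By unadjusted p 0 members were lower there too, against 2782 of all genes. The 9 higher members, DDX1, DDX10, DDX19A, DDX27, DDX54, DHX16, DHX32, DHX37 and DHX40, also passed when any other single gradient was left out. The calls leaned on how the load was scored. When genes were scored by their share in both polysome fractions together, 15 of the 19 no longer passed, 4 members were higher and DDX28 and DHX30 were lower, against 12.0% and 14.8% of all genes, and DDX39B had the opposite sign.

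**Figure D1:**
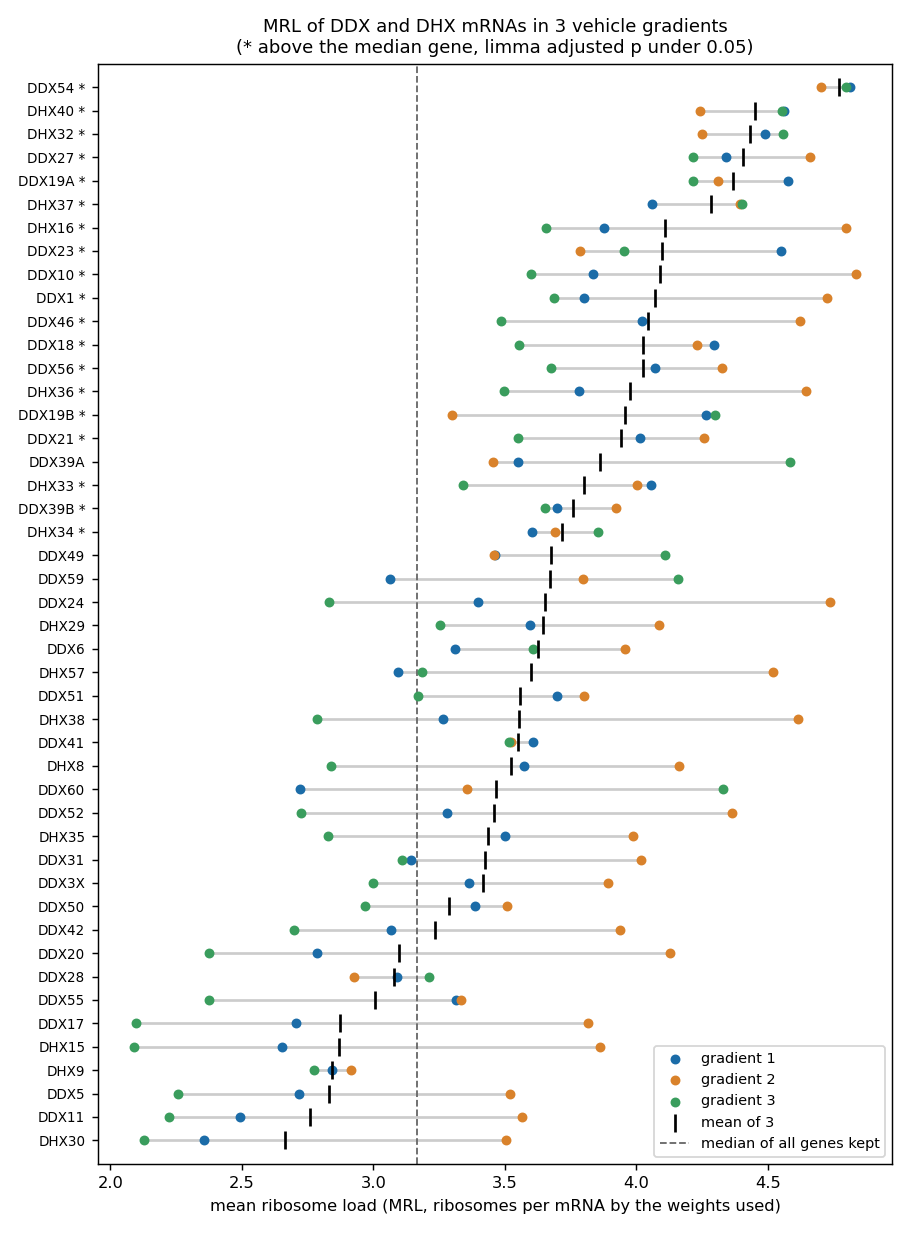
MRL of each of the 46 members in gradients 1, 2 and 3 (coloured points). The black tick is the mean of the 3, and the dashed line at 3.17 is the median of all genes kept. The horizontal axis is the MRL score, in ribosomes per mRNA only by the weights used. Members are sorted by mean MRL from DDX54 at 4.77 to DHX30 at 2.66, an asterisk marks the 19 that passed the test, and the orange points of gradient 2 lie at the right end of the range for 30 members.

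The bases around the start codon were read from the GENCODE release 29 transcripts on GRCh38 for members near the ends of the MRL order, to set their start sites beside their loads, and for DDX21 and DDX50, a pair of paralogs. Each line gives 10 bases before the start codon, the start codon in capitals and 7 bases after it, 5′ to 3′ on the mRNA strand.
DDX54: cgcggcccgaATGgcggccg
DHX40: ggccaggtctATGtcccggt
DHX32: gtcagacaagATGgaagaag
DHX9: cacttgaatcATGggtgacg
DHX30: ctggccagaaATGttcagcc
DDX21: tgcgctgaagATGccgggaa
DDX50: gtggccagtaATGcctggga
The genes lie at chr12:113157174-113185479 on the minus strand (DDX54), chr17:59565525-59608345 on the plus strand (DHX40), chr10:125836337-125896436 on the minus strand (DHX32), chr1:182839369-182887751 on the plus strand (DHX9), chr3:47802909-47850195 on the plus strand (DHX30), chr10:68956128-68985073 on the plus strand (DDX21) and chr10:68901278-68946847 on the plus strand (DDX50). A favourable start context is known to hold a purine at the third base before ATG and a G right after it. Both features, searched as ANNATGG and GNNATGG at the annotated start, were found in 26 of 45 members with an annotated leader (57.8%) and in 45.7% of 12321 genes kept. Of the genes printed, DHX32 with a high and DHX9 with a low load held both. DDX54 held only the G, DHX30, DDX21 and DDX50 only the purine, and DHX40 neither. Of the 5 lowest members by mean MRL, DHX9 alone held both, as DHX15 and DDX5, not printed, held only the purine and DDX11 only the G. Of the 5 highest, DDX27 and DDX19A were not printed either, and held only the G and both features.

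The median MRL was 3.66 for the 26 members with both features and 3.65 for the other 19. Over gradients 1 and 3 alone the medians were 3.62 and 3.46. Of the 26 and the 19, 11 and 8 passed as higher in MRL, against 22.0% of all genes. Without gradient 2, 13 and 7 were higher and 1 and 4 lower, against 29.1% and 28.0% of all genes. An upstream ATG in the annotated leader was present in 21 of 45 members (46.7%) and in 52.6% of genes kept with a leader. Members with and without one had median MRLs of 3.65 and 3.66. Of the 21 and the 24, 10 and 9 passed as higher, against 22.0% of all genes. Without gradient 2 these counts were 9 and 11, against 29.1% of all genes. Over all genes kept the medians were 3.12 with and 3.32 without an upstream ATG. These are matches of letters in 1 annotated transcript a gene, and the start used in HEK293 cells was not measured.

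Counts of calls by role, here and in the paragraphs on the other roles, stand beside 22.0% higher and 24.7% lower over all genes. Without gradient 2 these shares were 29.1% and 28.0%. Ribosome biogenesis was the most numerous role, with 15 members and a median MRL of 3.80. The MRL of 8 of the 15 was higher than that of the median gene and 0 were lower. In 9 the heavy polysomes led in all 3 gradients, against 21.0% of all genes. Without gradient 2 the calls also numbered 8 and 0, but DHX33 no longer passed and DDX49 did. DDX54, a nucleolar helicase that also binds nuclear receptors, carried the highest load in the family. Its heavy polysome share was 71.6%, 67.2% and 71.8% in gradients 1, 2 and 3, its light polysome share 15.6%, 22.7% and 13.8%, and its monosome share 12.8%, 10.1% and 14.4%. All 3 gradients were high and close together, giving an MRL of 4.81, 4.70 and 4.80 (adjusted p = 0.000585) and a rank above 99.3% of the genes kept. DDX27, which acts in the processing of the large-subunit rRNA, had 61.3%, 64.5% and 59.1% in heavy, 18.4%, 29.1% and 17.2% in light polysomes and 20.3%, 6.39% and 23.7% in monosomes. Its monosome share was lowest in gradient 2, and its MRL was 4.34, 4.66 and 4.21 (adjusted p = 0.00184).

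The other 6 nucleolar members that passed were DHX37 (mean MRL 4.29), which helps to remodel the small-subunit precursor, DDX10 (4.09), DDX18 (4.03), DDX56 (4.02), DDX21 (3.94), which links RNA polymerase I transcription to rRNA processing, and DHX33 (3.80). DHX33 (limma adjusted p = 0.045) did not pass without gradient 1, without gradient 2 or with either other filter on reads. DDX10 was much higher in gradient 2 (4.84) than in gradients 1 and 3 (3.83 and 3.60), whereas DHX37 was lowest in gradient 1, with 4.06, 4.39 and 4.40. The remaining 7, all of them factors of ribosomal subunit assembly, did not pass. Their mean MRLs were 3.68 for DDX49, 3.65 for DDX24, 3.56 for DDX51, 3.46 for DDX52, 3.42 for DDX31, 3.29 for DDX50 and 3.01 for DDX55. DDX24 had the widest spread of the family, with an MRL of 3.40, 4.73 and 2.83, and its high value came from gradient 2.

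The 4 mRNA export helicases had a median MRL of 3.91. In all 4 the heavy polysomes led in every gradient, against 21.0% of all genes. The MRL of 3 passed as higher, and of 4 without gradient 2. DDX19A and DDX19B release mRNA from its export factors at the cytoplasmic face of the nuclear pore, and DDX39A and DDX39B load export factors onto mRNA in the nucleus. DDX19A had 66.8%, 56.3% and 59.1% of its signal in heavy, 15.9%, 33.2% and 17.5% in light polysomes and 17.4%, 10.5% and 23.4% in monosomes. Its MRL of 4.58, 4.31 and 4.22 was above the median gene throughout (adjusted p = 0.00201). The MRL of DDX19B (mean 3.96, adjusted p = 0.033) and of DDX39B (3.76, adjusted p = 0.0358) also passed, but that of DDX39A did not (3.86, adjusted p = 0.0555).

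Pre-mRNA splicing had 9 members with a median MRL of 3.55. Without gradient 2, 3 were higher and 1 lower, against 29.1% and 28.0% of all genes. Over all gradients 0 were lower and 3 higher, against 24.7% and 22.0% of all genes. The 3 higher over all gradients were DHX16 (mean MRL 4.11), DDX23 (4.10) and DDX46 (4.04). DHX16 and DDX23 drive steps of spliceosome activation, and DDX46 acts as the branch site is recognised. DHX16 had an MRL of 3.88, 4.80 and 3.66, and DDX46 of 4.02, 4.62 and 3.49; both peaked in gradient 2. DDX23 did the opposite, with 4.55, 3.78 and 3.95. The other splicing members had mean MRLs of 3.55 for DHX38, 3.55 for DDX41, 3.52 for DHX8, 3.44 for DHX35, 3.23 for DDX42 and 2.87 for DHX15. DDX41, a helicase mutated in inherited myeloid neoplasia, had the tightest values in the family, 3.61, 3.52 and 3.52. DHX15, which takes spent spliceosomes apart, was among the 5 lowest members by mean MRL. It had 26.0%, 50.6% and 16.0% in heavy, 23.6%, 22.1% and 19.2% in light polysomes and 50.4%, 27.4% and 64.7% in monosomes. Its MRL was thus 2.65 and 2.09 in gradients 1 and 3 but 3.86 in gradient 2, and it did not pass (adjusted p = 0.339).

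The helicases that act on cytoplasmic mRNA had a median MRL of 3.65 over 5 members, all of them above the median gene by mean. Of the 5, 2 passed as higher, and likewise 2 without gradient 2. DHX36, which unwinds G-quadruplexes, had an MRL of 3.78, 4.65 and 3.49 (adjusted p = 0.0277). DHX34, a factor of nonsense-mediated decay, had 3.60, 3.69 and 3.85 (adjusted p = 0.0464), the narrowest range of the 5. DHX29, which helps small subunits scan structured leaders, had a mean of 3.65, DDX6, a partner of decapping and of microRNA silencing, 3.62, and DDX3X, an initiation helicase, 3.42; these 3 did not pass. DDX3X lay above the median gene in gradients 1 and 2 (3.36 and 3.89) and below it in gradient 3 (3.00).

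The transcription, microRNA and RNP assembly group had a median MRL of 2.87 over 5 members, of which 1 passed as higher and 0 as lower; without gradient 2, 1 was higher and 3 were lower. DDX1, a subunit of the tRNA ligase complex, was the one higher than the median gene, with an MRL of 3.80, 4.73 and 3.69 (adjusted p = 0.0157). DHX9, which opens double-stranded RNA and DNA-RNA hybrids, had 25.2%, 31.9% and 23.0% in heavy, 38.9%, 21.3% and 41.7% in light polysomes and 36.0%, 46.8% and 35.3% in monosomes. Its light polysome share was the largest of its shares in gradients 1 and 3 and the smallest in gradient 2. The MRL of DHX9 nevertheless moved little, from 2.84 to 2.92 and 2.78, and DHX9 was the only member below the median gene in all 3 gradients (adjusted p = 0.182). DDX20, part of the SMN complex that assembles spliceosomal RNPs, had an MRL of 2.79, 4.13 and 2.38. All 5 members of the group had their highest MRL in gradient 2.

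DDX5 and DDX17 are close paralogs that work with transcription factors and with the microRNA-processing Microprocessor. DDX5 had 25.0%, 41.9% and 17.7% in heavy, 31.4%, 28.4% and 24.8% in light polysomes and 43.7%, 29.7% and 57.5% in monosomes. DDX17 had 25.6%, 49.9% and 14.5% in heavy, 28.2%, 21.2% and 24.8% in light polysomes and 46.2%, 28.8% and 60.7% in monosomes. In both the monosome share was largest in gradients 1 and 3 and the heavy share in gradient 2. Their MRLs were 2.72, 3.52 and 2.26 for DDX5 and 2.70, 3.81 and 2.10 for DDX17, neither of which passed over 3 gradients (adjusted p = 0.26 and 0.344).

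DDX28 and DHX30 both serve the assembly of the mitochondrial ribosome, though their own mRNAs are made in the nucleus and translated in the cytosol. DHX30 had the lowest mean MRL of the family. Its heavy share was 22.6%, 44.5% and 18.0%, its light share 15.2%, 18.6% and 15.2%, and its monosome share 62.2%, 36.9% and 66.8%. The MRL of 2.36, 3.50 and 2.13 did not pass over all gradients (adjusted p = 0.126), and passed as lower without gradient 2 (adjusted p = 0.00187). DDX28 was the only member whose monosome share led in all 3 gradients, at 49.2%, 52.8% and 44.6%. Its light polysome share was only 12.9%, 12.3% and 15.9%, with 38.0%, 34.9% and 39.5% in heavy polysomes. Its MRL of 3.09, 2.93 and 3.21 stayed close to the median gene (adjusted p = 0.722) although its signal was split between the ends of the gradient.

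DHX40 and DHX32, whose roles are less settled, ranked next below DDX54. DHX40 had 66.2%, 53.7% and 65.6% in heavy, 16.8%, 37.0% and 18.3% in light polysomes and 17.0%, 9.24% and 16.1% in monosomes, with an MRL of 4.56, 4.24 and 4.55 (adjusted p = 0.00153). DHX32 had 64.6%, 55.0% and 64.6% in heavy, 17.4%, 33.2% and 21.9% in light polysomes and 18.0%, 11.8% and 13.5% in monosomes, with an MRL of 4.49, 4.25 and 4.56 (adjusted p = 0.00159). In both the light polysome share was highest in gradient 2. DDX59 and DHX57, with mean MRLs of 3.67 and 3.60, did not pass. DDX11, a DNA helicase of sister chromatid cohesion, had 21.9%, 45.6% and 17.6% in heavy, 26.3%, 18.9% and 22.7% in light polysomes and 51.8%, 35.5% and 59.7% in monosomes. Its MRL was 2.49, 3.56 and 2.22 (adjusted p = 0.192). DDX60, an interferon-induced antiviral factor, had a mean of only 10.7 reads a library, with 1 read in the lowest, so its MRL of 2.72, 3.35 and 4.33 rests on few reads.

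**Figure D2:**
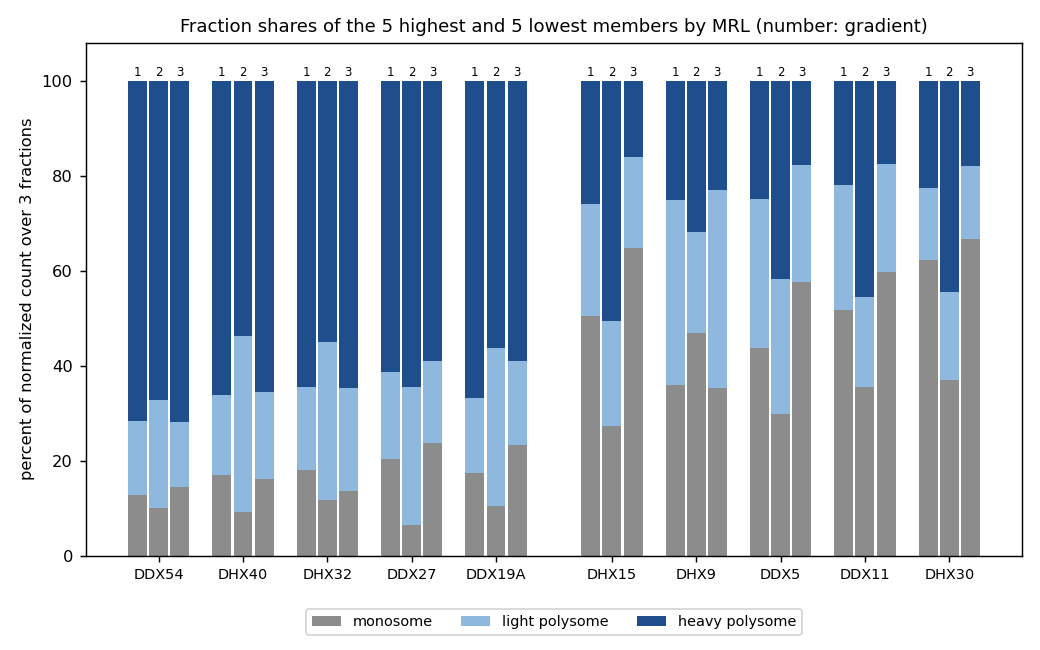
Share of each gene's normalized count in monosomes (grey), light (pale blue) and heavy polysomes (dark blue), in percent, for the 5 members with the highest and the 5 with the lowest mean MRL; the number above each bar is the gradient. In DDX54, DHX40, DHX32, DDX27 and DDX19A heavy polysomes held 53.7% or more in every gradient, while in DHX15, DDX5, DDX11 and DHX30 the monosome share was smallest in gradient 2.

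Heavy polysomes led in all 3 gradients for 23 of the 46 members, light polysomes for 0 and monosomes for 1. Over all genes kept, the shares were 21.0%, 9.03% and 17.2%. The 23 included 9 of 15 biogenesis, 4 of 4 export, 4 of 9 splicing and 3 of 5 cytoplasmic mRNA members. For 22 members no fraction led throughout. Over gradients 1 and 3 alone, heavy polysomes led for 23 members, light polysomes for 3 and monosomes for 10, against 33.5%, 21.5% and 22.7% of all genes.

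The fractions were next compared directly by limma on log2(normalized count + 1) of all 9 libraries, a scale that understates the change of low genes. Against monosomes, 17 members were higher in heavy polysomes and 1 was lower; over all genes, 24.7% passed as higher and 24.4% as lower. Of the 17, 8 were biogenesis factors, 2 export, 2 splicing and 2 cytoplasmic mRNA helicases, and the other 3 were DDX1, DHX40 and DHX32. DDX54 had a normalized count of 349, 303 and 286 in monosomes and of 1950, 2025 and 1421 in heavy polysomes, without overlap. Its log2 difference of 2.51 (SE 0.36, adjusted p = 0.000159) was the highest of the family, and it was positive in 3 of 3 gradients. DHX40 followed with 2.17 (SE 0.41, adjusted p = 0.000843), DHX32 with 2.10 (SE 0.36, adjusted p = 0.000536) and DDX27 with 2.08 (SE 0.50, adjusted p = 0.00385). DDX1 had 813, 893 and 853 in monosomes and 1374, 5035 and 1413 in heavy polysomes. All heavy polysome values of DDX1 lay above all its monosome values, gradient 2 by far the most, and the log2 difference was 1.33 (SE 0.48, adjusted p = 0.0336).

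DHX30 was the member lower in heavy polysomes than in monosomes, by a log2 difference of -1.03 (SE 0.39, adjusted p = 0.0395). Its normalized count was 1984, 1251 and 2343 in monosomes and 720, 1506 and 632 in heavy polysomes, so the groups overlapped through gradient 2. Without gradient 1 the adjusted p was 0.339 and without gradient 3 it was 0.427. By edgeR on the recovered reads 0 members were lower (2 by unadjusted p), against 3194 of all genes (3563 by unadjusted p). Without gradient 2 the adjusted p of DHX30 by limma was 5.33e-05. In that fit 7 members were lower and 19 higher, against 30.0% and 31.4% of all genes. With the gradient number as a block, DHX29 no longer passed (adjusted p = 0.056 in place of 0.0451). In every setting tried, DDX10, DDX19A, DDX27, DDX54, DHX16, DHX32, DHX36, DHX37 and DHX40 passed as higher, and without gradient 1 no others did.

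**Figure D3:**
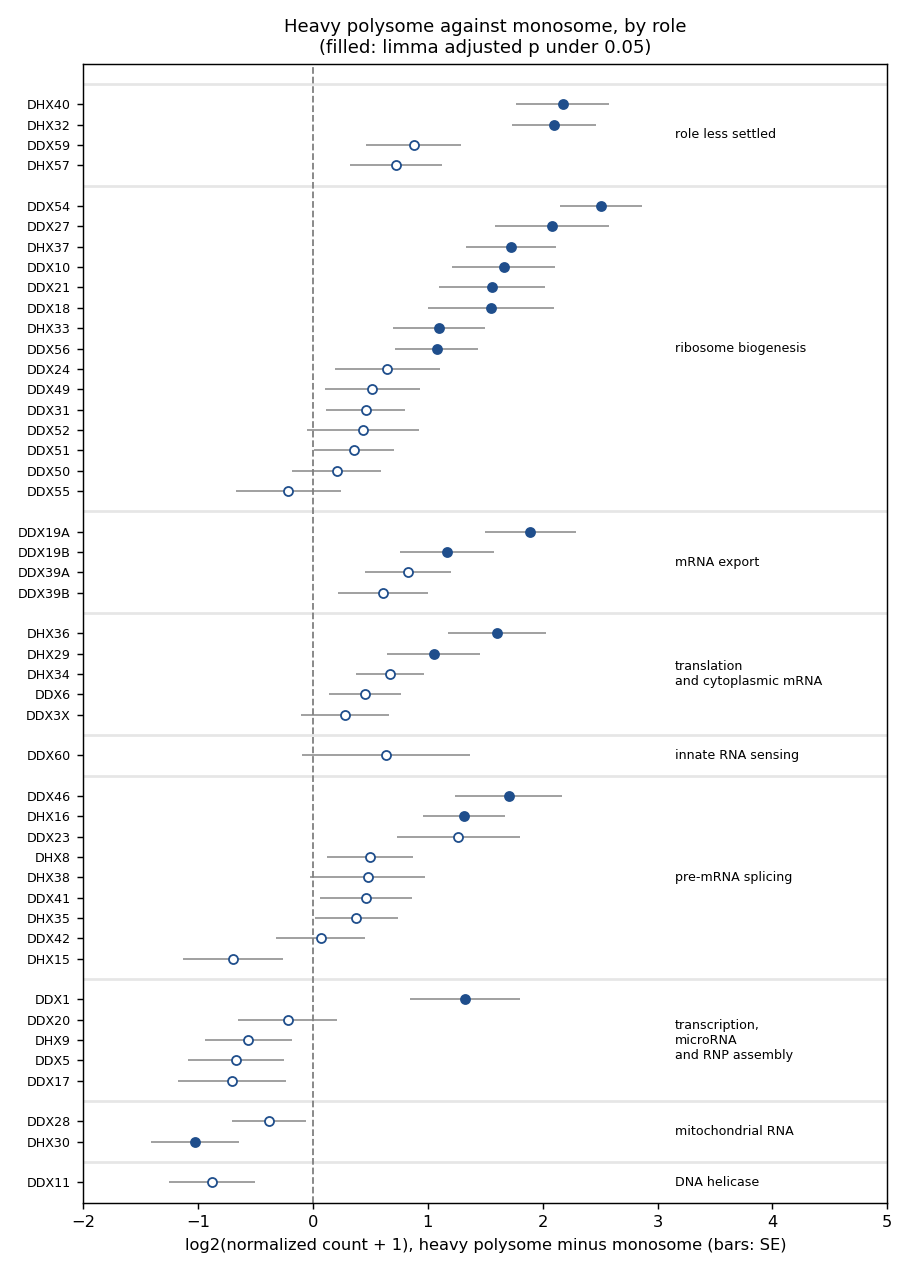
Difference between heavy polysomes and monosomes on the log2(normalized count + 1) scale (horizontal axis, points; bars are the SE from limma) for the 46 members, grouped by role. Filled points passed at an adjusted p of 0.05: 17 on the right, led by DDX54 at 2.51, and DHX30 on the left at -1.03.

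Between the polysome fractions, 16 members were higher in heavy than in light polysomes and 0 were lower; over all genes, 14.7% passed as higher and 17.5% as lower. Lower calls also numbered 0 by unadjusted p, by edgeR and by DESeq2, against 2945, 2608 and 2812 of all genes. DDX54 again led, with 426, 685 and 273 in light polysomes and a log2 difference of 2.04 (SE 0.36, adjusted p = 0.00682). The others were DDX23 (1.86), DDX56 (1.64), DDX39B (1.63), DDX27 (1.56), DDX39A (1.54), DDX19A (1.52), DDX49 (1.49), DDX28 (1.45), DHX40 (1.45), DHX16 (1.43), DDX51 (1.40), DHX32 (1.39), DHX37 (1.39), DDX6 (1.33) and DHX34 (1.09). Only 8 of these 16 were among the 17 higher in heavy polysomes than in monosomes. DDX28, DDX39A, DDX39B, DDX49, DDX51, DDX6, DDX23 and DHX34 were the other 8, with light polysome values below their monosome values on average. Both comparisons share the heavy polysome libraries.

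The calls of this comparison leaned on gradients 1 and 3, and all 16 were kept without gradient 2. Without gradient 1, and likewise without gradient 3, 0 members passed. Over all genes 0 and 1 passed as higher and 0 and 0 as lower. By unadjusted p, 13 and 19 members were higher, against 1057 and 1319 of all genes, and 0 and 0 lower, against 1433 and 1781. Without gradient 2, 26 members were higher and DHX9 was lower (-0.74, adjusted p = 0.0141), against 29.9% and 30.2% of all genes. Leaving out the light polysome library of gradient 2 alone, which was decided after the data were seen, gave 25 higher and 1 lower, against 24.7% and 25.8% of all genes. With the gradient number as a block, DDX1 and DDX19B also passed (adjusted p = 0.0236 and 0.0391), making 18.

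Between light polysomes and monosomes, 0 members were higher and 2 were lower; over all genes, 8.47% passed as higher and 10.2% as lower. By unadjusted p, 1 member was higher and 8 were lower by limma, 4 and 8 by edgeR, and 3 and 10 by DESeq2. Over all genes the unadjusted counts were 2041 and 2145 by limma, 2202 and 2049 by edgeR, and 2109 and 2277 by DESeq2. The 2 members lower by adjusted p were the mitochondrial factors. DDX28 had 692, 1009 and 547 in monosomes against 182, 235 and 195 in light polysomes, without overlap, a log2 difference of -1.84 (SE 0.32, adjusted p = 0.00173). DHX30 had 486, 629 and 534 in light polysomes, all under its lowest monosome value of 1251, a log2 difference of -1.72 (SE 0.39, adjusted p = 0.0078). Without gradient 1 neither passed (adjusted p = 0.0625 and 0.15) and without gradient 3 only DDX28 did. Without gradient 2, 18 members were lower (18.1% of all genes), without its light polysome library 5 (11.1%), and DESeq2 on all libraries called 8 (12.7%). Of the exons of DDX28, 22.5% overlap DUS2 on the opposite strand, and whether the counting used strand is not given in the sources used here, so reads of the 2 genes may not have been told apart.

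The loads of many members were highest in gradient 2. The highest MRL fell in gradient 2 for 30 of 46 members (65.2%), against 34.6% of all genes kept. Among the 6513 genes kept with a coding region within the range of the members it was 48.0%. In the lists read at the end it was 73.7% of G-patch proteins, 64.7% of DEAD-box cofactors and 85% of other RNA helicases, so this was not particular to the family. The MRL in gradient 2 minus the mean of gradients 1 and 3 had a median of 0.48 over the members, from -0.98 for DDX19B to 1.62 for DDX24, against a median of -0.10 over all genes. It exceeded 1 in 14 members (30.4%), compared with 5.58% of all genes. DHX38, a splicing helicase of the catalytic steps, went from 3.27 and 2.78 in gradients 1 and 3 to 4.61 in gradient 2. DHX57 went from 3.09 and 3.19 to 4.52, and DDX52 from 3.28 and 2.73 to 4.36. Members above the median gene in gradient 2 only numbered 8 (17.4%, against 8.10% of all genes): DDX5, DDX11, DDX17, DDX20, DDX31, DDX42, DHX15 and DHX30. In the other direction, DDX19B dropped from 4.27 and 4.30 to 3.30.

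The median SD of MRL over the 3 gradients was 0.530 among the members and 0.316 over all genes. The MRLs of the 46 members in gradients 1 and 3 were correlated with a Pearson r of 0.743. With gradient 2 the r was 0.469 for gradient 1 and 0.207 for gradient 3. Over all genes these values were 0.869, 0.724 and 0.640. These are descriptions across genes, which share libraries and are not independent replicates. Most members lay above the median gene in all 3 gradients nonetheless, 25 of 46 (54.3%) against 33.6% of all genes.

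**Figure D4:**
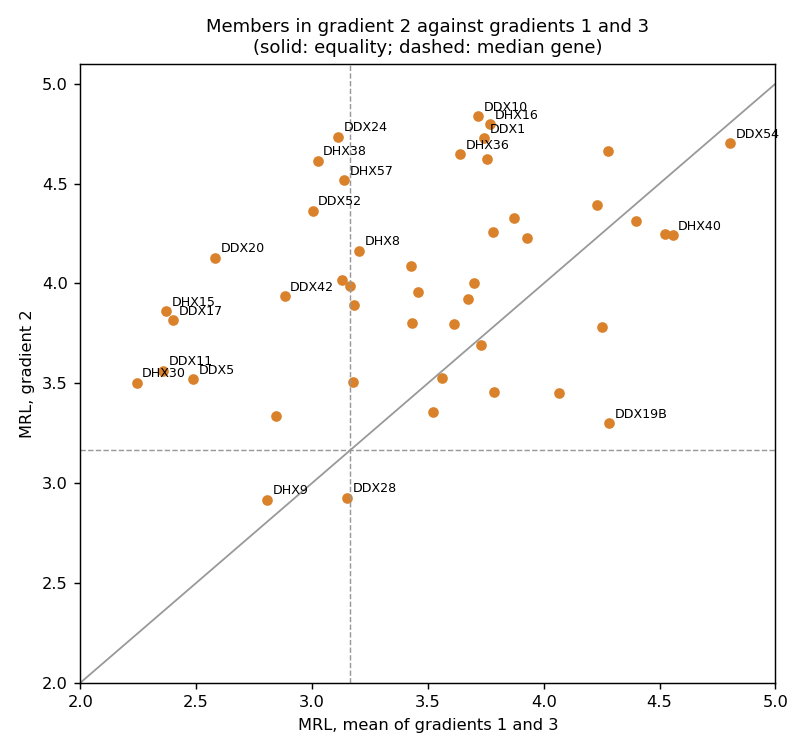
MRL score of the 46 members in gradient 2 (vertical axis) against the mean of gradients 1 and 3 (horizontal axis). The solid line marks equality and the dashed lines the median gene. Of the members, 34 lie above the solid line, and those at the left edge, such as DHX30, DHX15 and DDX17, cross the dashed line of the median gene only in gradient 2.

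Close paralogs form 4 pairs in the table, and their MRLs were set side by side in each gradient. Differences within a pair were tested by an exact permutation test that flips their signs, two-sided, which over 3 gradients cannot give a p below 0.25. DDX21 and DDX50 are nucleolar helicases encoded by neighbouring genes, and their start contexts both held the purine without the G. DDX21 had 52.1%, 53.9% and 40.7% in heavy, 27.2%, 37.4% and 34.2% in light polysomes and 20.7%, 8.62% and 25.1% in monosomes. DDX50 had 36.9%, 40.5% and 30.6% in heavy, 36.0%, 32.3% and 29.3% in light polysomes and 27.1%, 27.3% and 40.1% in monosomes. The MRL of DDX21 exceeded that of DDX50 by 0.63, 0.75 and 0.58, a mean of 0.65 ± 0.09 (SD, n = 3), in 3 of 3 gradients (exact permutation p = 0.25). This mean is larger than the spread between gradients.

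The other pairs did not keep 1 order. DDX19B had 58.4%, 37.9% and 59.1% in heavy, 23.2%, 27.0% and 23.1% in light polysomes and 18.5%, 35.1% and 17.8% in monosomes. DDX19A exceeded DDX19B by an MRL of 0.31 and 1.01 in gradients 1 and 2 and fell short by -0.08 in gradient 3. DDX39A had 45.2%, 43.8% and 67.0% in heavy, 19.4%, 17.6% and 15.7% in light polysomes and 35.4%, 38.7% and 17.3% in monosomes. DDX39B had 49.4%, 52.0% and 49.2% in heavy, 15.3%, 21.6% and 12.9% in light polysomes and 35.4%, 26.4% and 37.9% in monosomes. DDX39A minus DDX39B came to -0.15, -0.47 and 0.93, set by the high DDX39A value of gradient 3. DDX5 minus DDX17 came to 0.01, -0.30 and 0.16, smaller than the movement of either gene between gradients. The exact permutation p was 0.5 for DDX19A and DDX19B and 1 for the other pairs.

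Counts of close copies carry a further limit. The exons of DDX19A and DDX19B overlap those of a readthrough gene by 23.8% and 15.7%, and those of DDX39B overlap the readthrough ATP6V1G2-DDX39B by 29.7%. How reads shared with such genes or with a paralog were assigned is not given in the sources used here. On the opposite strand, DHX32 overlaps BCCIP over 10.4% of its exons and DDX54 overlaps CFAP73 over 9.89%.

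The coding regions of the members were long, with a median of 2346 nt against 1407 nt over all genes kept, from 1284 nt for DDX39A to 5139 nt for DDX60. Coding length and mean MRL had a Spearman rho of -0.036 across the 46 members and of 0.253 across 12706 genes kept. By gradient it was -0.14, 0.31 and -0.16 among the members and 0.16, 0.48 and 0.09 over all genes. The most positive rho came from gradient 2 in both. The shift of gradient 2 from the mean of gradients 1 and 3 had a rho of 0.36 among members and 0.48 over all genes. Among the 6513 genes kept with a coding region within the range of the members, the median of mean MRLs was 3.35, below the 3.65 of the members and above the 3.21 of all genes.

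**Figure D5:**
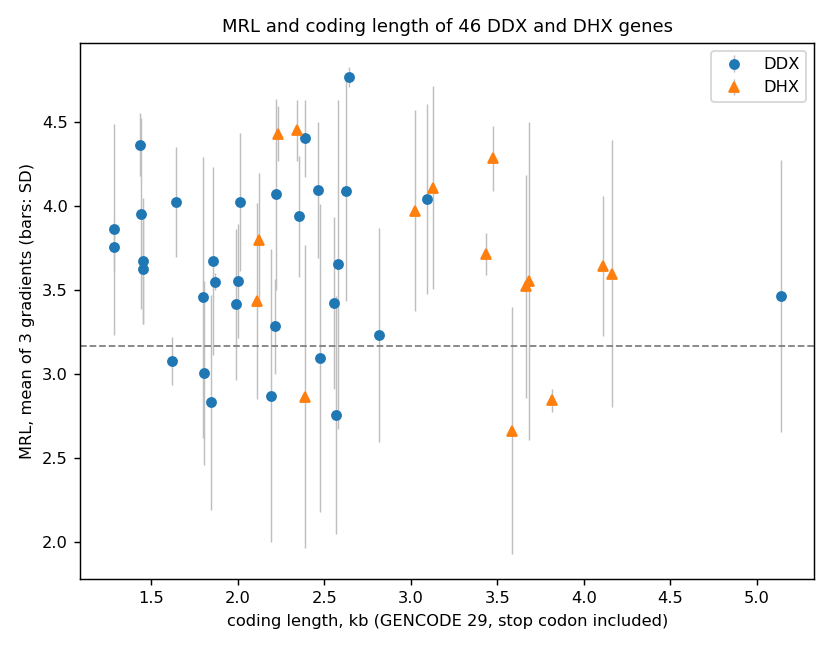
Mean MRL score over 3 gradients (vertical axis, bars are the SD) against coding length in kb (horizontal axis). Circles are 31 DDX and triangles 15 DHX genes, and the dashed line is the median gene at 3.17. The points show no slope, from DDX39A at 1284 nt and an MRL of 3.86 to DDX60 at 5139 nt and 3.47.

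Genes that work beside the family were read in the same way, in 3 lists. Their counts of calls stand beside 22.0% higher and 24.7% lower in MRL over all genes. Without gradient 2 these shares were 29.1% and 28.0%. Of 20 other RNA helicases kept, 4 had a higher MRL than the median gene, 1 a lower one (3 and 6 without gradient 2), and their median was 3.13. EIF4A3, the helicase of the exon junction complex, had 5.23, 4.77 and 5.29, and its mean of 5.09 was above that of any DDX or DHX gene. EIF4A1, the initiation helicase, had 4.20, 3.25 and 4.27, and its paralog EIF4A2 had 2.49, 2.23 and 2.39, the lowest of the list and the only one that passed as lower. SUPV3L1 and MTREX, which unwind RNA for decay in mitochondria and nucleus, were the other members of the 4. In 17 of the 20 (85%) the highest MRL was in gradient 2, against 34.6% of all genes kept.

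Of 19 G-patch proteins kept, which switch on DEAH-box helicases, 7 were higher, 1 was lower (7 and 2 without gradient 2) and the median MRL was 3.48. GPKOW, a partner of DHX16, was the highest with 4.24, 4.98 and 4.76, and RBM5, a splicing regulator, the lowest with 2.40, 2.65 and 1.84. Of 17 MIF4G proteins and other DEAD-box cofactors, 5 were higher, 1 was lower (6 and 1 without gradient 2) and the median was 3.51. PDCD4, an inhibitor of the EIF4A helicases, had 4.51, 4.29 and 4.60. EIF4B, which stimulates the same enzymes, had 1.89, 1.96 and 1.78, the lowest of the list and with little spread. GLE1, the activator of DDX19B at the nuclear pore, passed as higher with a mean of 3.88.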

How the data were processed

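The authors' deposited signal, for 13661 genes in 9 vehicle libraries, is each gene's count over the size factor of its library. From the smallest step of a library, 100% of its values came out as whole reads, at a tolerance of 0.01 reads. The authors' deposited percent is a gene's share of the normalized count over the 3 fractions with 1 replicate number. Their deposited MRL score was recomputed from the mean percentages with weights solved from the table, and MRL was then computed per gradient. Per the submitters' processing notes, counts came from featureCounts on GRCh38; the aligner, counting options and strand were not given in the sources used here. ERCC spike-ins, added after fractionation per the labels' protocols, were not used.

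Genes averaging 10 or more recovered reads, with reads in every gradient, were kept (12720). limma 3.58.1 in R 4.3.3 (trend, two-sided, Benjamini-Hochberg over all genes kept, threshold 0.05) was fitted to log2 MRL minus the median gene, and to log2(normalized count + 1) with fraction as the only term. The unit was known only once the table was read; limma was the test planned for normalized values. The fits were also run on simulated counts, drawn with no difference between gradients. That run therefore does not show how the tests behave with a gradient like gradient 2. Alternatives were edgeR 4.0.16 and DESeq2 1.42.0 on the recovered reads, other scalings, pseudocounts and filters, a replicate block, and leaving out each replicate. Same-numbered libraries share a batch number in the labels, which pairs them. The correlations of their deviations from the fraction means were 0.14, 0.10 and 0.09 in replicate 1, 0.13, -0.14 and 0.20 in replicate 2, and -0.05, -0.54 and 0.39 in replicate 3.

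The members, role groups, gene lists and tests were chosen with earlier results of these data known. Values in every library were given for the 5 highest and 5 lowest members by mean MRL and for the paralog pairs; other members are named with their MRL. Gene models and sequences came from GENCODE release 29.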

Additional observations from a re-analysis of the deposited data

How the results depend on the processing

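Over the alternatives, each limma MRL test gave 17 to 21 members higher, against 19, except without replicate 1 and when MRL was replaced by the share in both polysome fractions. Leaving out 1 replicate gave 9 to 20 members higher and 0 to 6 lower in MRL, with 1258 to 3698 of all genes higher and 2164 to 3566 lower. That share gave 4 members higher and 2 lower, and 1531 and 1879 of all genes. For heavy polysomes against monosomes, leaving out 1 replicate gave 9 to 19 members higher and 0 to 7 lower, with 1271 to 3996 of all genes higher and 1866 to 3818 lower. Leaving out light polysome library 2, chosen after seeing the data, gave 2 members lower, and edgeR gave 0. For light polysomes against monosomes, leaving out 1 replicate gave 0 to 18 members lower, with 149 to 2202 of all genes higher and 413 to 2305 lower. Without light polysome library 2 there were 5 members lower, by DESeq2 8, and with only these 2 fractions in the fit 717 genes were higher. For heavy against light polysomes, leaving out 1 replicate gave 0 to 26 members higher and 0 to 1 lower, with 0 to 3806 of all genes higher and 0 to 3845 lower. Without light polysome library 2 there were 25 members higher, 1 lower, and 3137 genes higher. Without a replicate the fits have fewer samples; the cause of the other differences was not tested.

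Signs turned for up to 10 members in a setting: 10 by the polysome share, DDX39B the 1 called member among them, and up to 9 on leaving out 1 replicate, for light polysomes against monosomes without replicate 3. Values are given as log2 differences for the members named with all their values and those called. Leaving out 1 replicate gave -0.41 to 0.019 for the MRL of DDX17, and DDX39B had -0.14 by the polysome share, on a log2 odds scale. Light polysomes against monosomes gave -0.51 to 0.17 for DHX9 on leaving out 1 replicate, and 0.19 without light polysome library 2. Heavy against light polysomes gave -0.31 to 0.50 for DDX11, -0.46 to 0.55 for DDX17 and -0.40 to 0.11 for DDX5 on leaving out 1 replicate, and -0.12 for DDX17 without light polysome library 2. The replicate block changed no call of a member other than DHX29, DDX1 and DDX19B, where it gave 16 and 18 members higher in heavy polysomes than in monosomes and light polysomes. The lowest member, DDX60, had a mean of 10.7 reads, and its shares are limited by depth.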
